A study of Mus musculus with 3 samples.

Results

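Tetraspanins are a family of membrane proteins, and 9 of their genes were followed here across the immune cells of mouse melanoma grafts: Cd81, Cd63, Cd9, Cd37, Cd53, Cd82, Cd151, Tspan13 and Tspan32. They were taken by gene symbol from the 55401 genes listed in the count tables, and each symbol occurred once. The list was drawn up with earlier results of these data known, so the levels of the 9 genes are given as a description and none of them was tested.

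A tetraspanin crosses the membrane repeatedly and binds other membrane proteins side by side, among them integrins, immunoglobulin superfamily proteins and receptors, so that patches rich in tetraspanins gather partners together. CD81 is found on the surface of many cell types, CD63 sits mainly in late endosomes, lysosomes and secretory granules, and CD9, CD63 and CD81 are the usual surface markers of exosomes. CD37 and CD53 are found mostly on leukocytes, CD82 is known as a suppressor of metastasis in tumour cells and as a costimulatory molecule on T cells, and CD151 binds laminin-binding integrins.

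The study grafted YUMM1.7, a mouse melanoma cell line, under the skin of mice aged 4, 12 and 20 months, with 500000 cells per mouse and 7 mice per age. Tumours were taken after 18 days, and live CD45+ cells (DAPI negative, stained with an antibody to CD45.2) were sorted for 3′ single-cell RNA sequencing with the PIP-seq kit. Every age is represented by 1 library, and how the cells of the 7 mice were combined is not given in the sources used here, nor are the strain and sex of the mice. All groups carried the same graft, and there was no group without a tumour.

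With 1 library per age there is no replicate check of any difference between ages and no test could be made. All intervals below are exact 95% intervals that cover counting error only, not the spread between mice or libraries, so that a narrow interval does not show a reproducible difference. Deposited cells numbered 14393 (4 months), 14653 (12 months) and 14684 (20 months), and their median counts per cell were 6789, 7411 and 6936. After removal of likely doublets 41105 of 43730 cells remained, of which 620 fell into 3 clusters left unnamed. The labels give the cell type as melanoma, whereas Ptprc, the gene of CD45, had a count in 95.1%, 94.0% and 94.0% of cells and the melanocyte gene Mlana in 0.0665%, 0.116% and 0.101%. A cluster of 49, 29 and 48 cells was fibroblast-like, and 9 barcodes occurred in 2 libraries.

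Cells were grouped by clustering on genes that did not include any tetraspanin, and the clusters were named from marker lists, with "-like" added to each name. Monocyte/macrophage-like cells numbered 5158, 4133 and 4969, T-like cells 5037, 6645 and 6208, NK-like cells 2246, 2017 and 1578, and dendritic cell-like cells 725, 618 and 729. Plasmacytoid dendritic cell-like cells (70, 63 and 50), B-like cells (25, 21 and 23) and mast cell or basophil-like cells (8, 19 and 17) were few. In the last, the 7 mast cell or basophil markers summed to 62370, 71430 and 90760 CPM. Only Mcpt8 of these markers was at 0, in every library. Throughout, a level is the summed count of a gene in a group of cells, scaled by the total count of that group in the usual way (CPM), and a ratio is the log2 of the older level over the 4-month level. CPM is not scaled by gene length, so levels are compared within a gene and not between genes. In a summed level, fewer cells with the transcript and less transcript per cell cannot be told apart.

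Cd81 (ENSMUSG00000037706.17) lies at chr7:143052739-143067934 on the plus strand of GRCm38, and Tspan32 (ENSMUSG00000000244.17) is its upstream neighbour at chr7:143005046-143019644 on the same strand. There are 33094 bases between them, and no annotated gene lies wholly within that stretch (GENCODE M21). Annotated genes that reach into it from either side were not counted. Their 250-base windows upstream of the RefSeq start (GRCm38.p6) are shown because the pair share a locus, with matches to the GC box motif GGGCGG, on either strand, in capitals.
Cd81, chr7:143052500-143052749: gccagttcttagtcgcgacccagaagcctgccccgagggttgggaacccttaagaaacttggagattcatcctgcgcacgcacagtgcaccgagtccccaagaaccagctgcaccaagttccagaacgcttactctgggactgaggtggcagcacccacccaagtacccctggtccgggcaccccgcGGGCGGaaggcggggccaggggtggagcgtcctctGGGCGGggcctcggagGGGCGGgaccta
Tspan32, chr7:143004796-143005045: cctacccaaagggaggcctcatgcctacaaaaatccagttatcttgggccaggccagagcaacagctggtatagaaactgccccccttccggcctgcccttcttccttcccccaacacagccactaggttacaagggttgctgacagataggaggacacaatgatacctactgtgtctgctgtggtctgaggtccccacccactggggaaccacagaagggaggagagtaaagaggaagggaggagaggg
The Cd81 window held 3 GC boxes and 65.6% G and C bases. The Tspan32 window held none and 55.6%. Of 32817 promoter windows of the same length 32.7% held a GC box, and the median G and C share was 52.4%. Neither window matched the other 3 motifs searched on both strands, the E-box CACGTG (in 6.02% of promoters), the TATA box TATAAA (12.4%) and the PU.1 site GAGGAAGT (2.44%). A match is a run of letters, not a shown binding site, and the absence of one says only that these letters do not occur in the window.

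The remaining genes lie at chr10:128900989-128912822 (Cd63), chr6:125460266-125494791 (Cd9), chr7:45233632-45239115 (Cd37), chr3:106759921-106790149 (Cd53), chr2:93419111-93463140 (Cd82), chr7:141467392-141471473 (Cd151) and chr12:36014557-36042500 (Tspan13), so that 4 of the 9 are on chromosome 7. Transcripts annotated on the other strand overlap Cd81 (R74862), Cd9 (Gm28809 and Gm26728), Cd37 (Tead2), Cd82 (Gm10804), Cd151 (Gm10575) and Tspan32 (Tspan32os). Whether counting used the strand is not given in the sources used here, so reads of these pairs might be mixed.

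**Figure D1:**
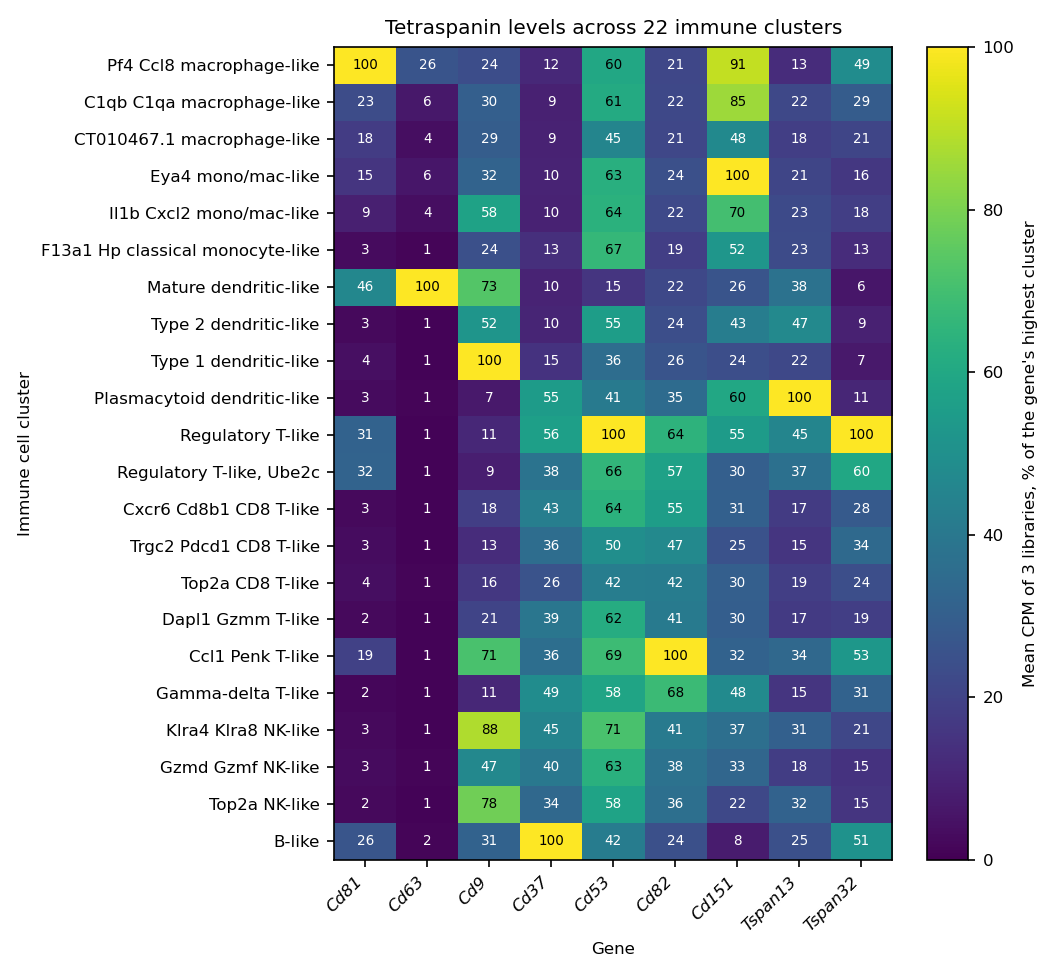
Level of 9 tetraspanin genes (columns) in the 22 immune clusters of at least 20 cells per library (rows), as the mean CPM of the 3 libraries in percent of the gene's highest cluster, which is set to 100. Cd81 was highest in Pf4 Ccl8 macrophage-like cells, Cd63 in mature dendritic-like cells, Cd9 in type 1 dendritic-like cells, Cd37 in B-like cells, and Cd53 and Tspan32 in regulatory T-like cells.

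Each gene had its own order over cell types, as the plot of levels by cluster shows for the clusters of at least 20 cells in every library, which leaves out mast cell or basophil-like cells. In percent of its highest cluster, the macrophage-like cells led by Pf4 and Ccl8, Cd81 stood at 3.91% in type 1 and 2.54% in type 2 dendritic-like cells, while Cd53 stood at no less than 15.3% of its highest level in any of the 22. Over these clusters the log2 levels of Cd63 and Cd81 had the highest correlation of any pair of the 9 genes (Pearson r = 0.672), followed by Cd37 and Cd82 (0.667), and Cd37 and Cd63 had the lowest (-0.598). Between the neighbours Cd81 and Tspan32 it was 0.476. These values describe 22 clusters that share 3 libraries, and carry no test.

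Of the 9 genes Cd81 differed most with age in monocyte/macrophage-like cells. Its level there was 72.56 CPM (69.99 to 75.2) in the 4-month library, 126.8 CPM (123.3 to 130.4) in the 12-month library and 176.5 CPM (172.6 to 180.5) in the 20-month library. The 3 intervals did not overlap, and the order followed age. The log2 ratio to 4 months was 0.81 (0.74 to 0.87) for the 12-month library and 1.28 (1.22 to 1.34) for the 20-month library.

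Within that class Cd81 differed more between clusters than between ages. Macrophage-like cells led by Pf4, Ccl8 and Vcam1, which code for chemokines and an adhesion molecule, held 567, 512 and 571 CPM at 4, 12 and 20 months. The log2 ratio was 0.01 (-0.08 to 0.10) at 20 months, whose interval held 0, and -0.15 (-0.25 to -0.05) at 12 months. These cells made up 4.30% (3.77 to 4.89) of the class in the 4-month, 8.71% (7.87 to 9.61) in the 12-month and 12.2% (11.3 to 13.2) in the 20-month library. Their part of the class's Cd81 counts was 40.1%, 46.8% and 50.2%.

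Macrophage-like cells led by the complement genes C1qb and C1qa, with high MHC class II genes, were more numerous (32.05%, 34.5% and 43.1% of the class) and differed with age inside the cluster. Cd81 there stood at 90.9, 127 and 166 CPM, and the ratios were 0.48 (0.38 to 0.59) and 0.87 (0.78 to 0.97). Cells led by the inflammatory genes Il1b and Cxcl2 held 34.1, 56.6 and 52.5 CPM (20-month ratio 0.62, 0.41 to 0.83). The lowest level among the 6 clusters of the class was in classical monocyte-like cells led by F13a1 and Hp, with 9.51, 14.9 and 22.8 CPM (ratio 1.26, 0.94 to 1.58). Their share of the class was 39.4% in the youngest library and 23.9% and 23.6% in the older ones.

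With the shares of the 6 clusters held at those of the 4-month library, the Cd81 ratio of the class was 0.31 at 12 months and 0.57 at 20 months, in place of 0.81 and 1.28. Both values were above 0, and both were short of a 1.5-fold difference, which the measured ratios had passed.

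**Figure D2:**
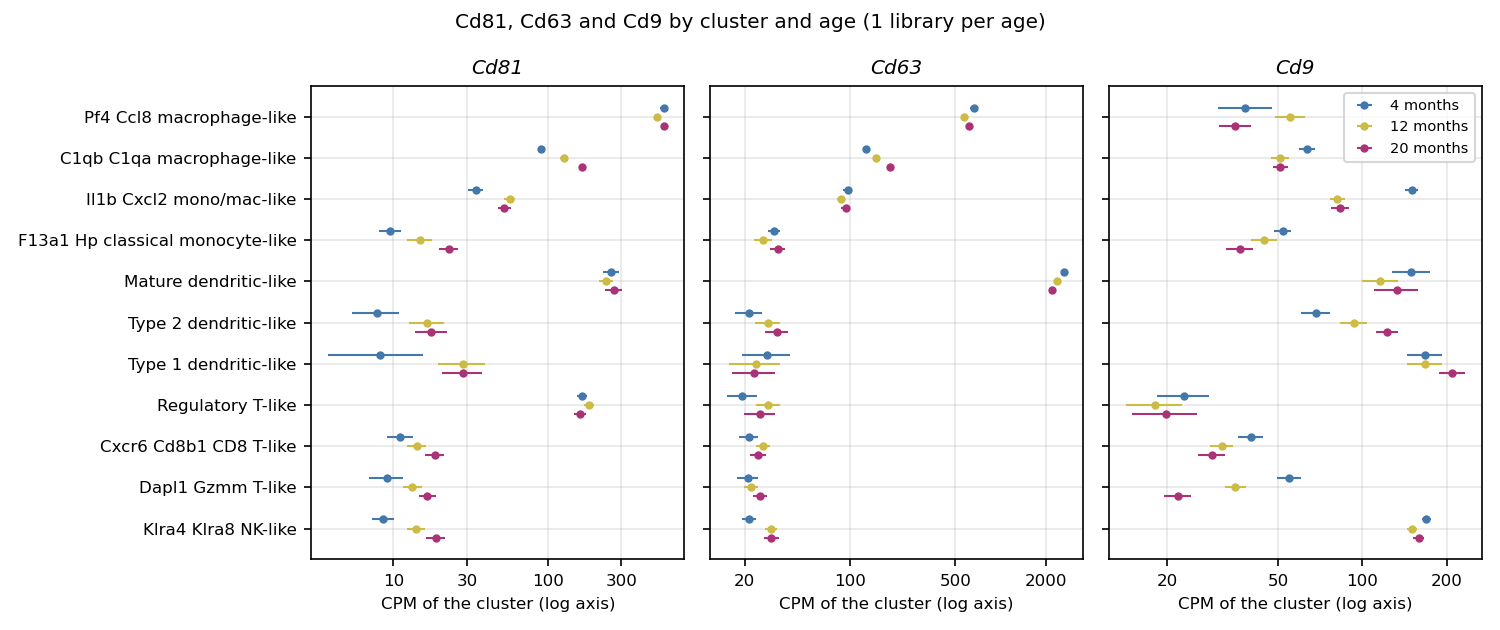
Level of Cd81, Cd63 and Cd9 in 11 immune clusters (CPM, log axes whose ranges differ by panel) at 4, 12 and 20 months, 1 library per age; bars are exact 95% Poisson intervals. Cd81 in Pf4 Ccl8 macrophage-like cells stayed between 512 and 571 CPM, and in C1qb C1qa macrophage-like cells it went from 90.9 to 166 CPM.

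Outside that class Cd81 was high in mature dendritic-like cells led by Fscn1 and Ccl22, with 257, 239 and 269 CPM, and in the larger cluster of regulatory T-like cells, with 168, 186 and 163 CPM, and intervals overlapped between ages in both. All further values of regulatory T-like cells are of that cluster. A smaller cluster of dividing regulatory T-like cells, led by Areg and Ube2c, held 203 CPM (170.5 to 240), 144 CPM (124 to 167) and 179 CPM (148 to 215), with the 4-month and 12-month intervals apart. Type 1 and type 2 dendritic-like cells held 8.23, 28.15 and 28.1 CPM and 7.81, 16.5 and 17.6 CPM. The dendritic cell-like class as a whole went from 50.3 to 73.7 and 54.5 CPM, and mature cells were 19.9%, 27.0% and 15.1% of it.

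T-like cells as a class held 35.5, 36.5 and 31.3 CPM of Cd81, with a ratio of -0.18 (-0.30 to -0.07) at 20 months. The larger cluster of regulatory T-like cells made up 14.3%, 8.86% and 7.15% of T-like cells. With cluster shares held at those of 4 months the 20-month ratio of the class was 0.15, so its direction turned. The T-like cells led by Ccl1 and Penk held 61.6, 200.2 and 56.4 CPM, highest at 12 months. Like the dividing cells led by histone genes, that cluster had no T marker among its 10 leading genes, so its name rests on its marker score alone.

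B-like cells held 146 CPM (92.4 to 219), 114 CPM (73.0 to 170) and 173 CPM (117 to 247), with overlapping intervals. Mast cell or basophil-like cells held 252, 342 and 435 CPM from at most 19 cells, and fibroblast-like cells 422, 365 and 404 CPM. Over the 3 libraries fibroblast-like and mast cell or basophil-like cells came first and overlapped in range. B-like, monocyte/macrophage-like and dendritic cell-like cells came next, each overlapping the next in range, then T-like cells and, overlapping at the bottom, plasmacytoid dendritic cell-like and NK-like cells.

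In NK-like cells Cd81 was low, with 8.61 CPM (7.33 to 10.1), 13.99 CPM (12.3 to 15.8) and 19.2 CPM (16.8 to 21.8). The ratio was 0.70 (0.41 to 0.99) for the 12-month and 1.15 (0.86 to 1.45) for the 20-month library, beside 0.81 and 1.28 in the monocyte/macrophage-like class. In all, 12 of the 22 immune clusters held a mean of under 30 CPM, and 11 of these 12 were higher at 20 than at 4 months. Among those 11 the interval held 0 in T-like cells led by Trgc2 and Pdcd1 (-0.22 to 0.61). It also held 0 in NK-like cells led by histone genes (-1.05 to 1.69) and in plasmacytoid dendritic cell-like cells (-1.15 to 3.90). The median of the 12 was 9.27, 15.2 and 18.1 CPM, while the level over all retained cells of the library was 48.9, 66.4 and 92.3 CPM.

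Monocyte/macrophage markers were also counted in other classes. In NK-like cells 11 of the 12 monocyte/macrophage markers (all except Ccr2, which NK cells also express) stood at 5.66% to 9.87% of their monocyte/macrophage-like level, and Cd81 stood above all 11 at 11.9%, 11.03% and 10.9%. In T-like cells the same markers stood at 5.37% to 11.1%, and Cd81 at 48.9%, 28.8% and 17.7%. The part of RNA from other cells in the low levels of Cd81 was not tested.

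Marker lists of other cells in monocyte/macrophage-like cells did not all stay level between ages. The 7 fibroblast markers, of cells rich in Cd81 and Cd63, summed to 8.74, 6.12 and 9.23 CPM, the 7 mast cell or basophil markers to 47.2, 50.9 and 37.7 CPM, the 8 melanoma markers to 33.8, 35.85 and 37.6 CPM and the 11 dendritic markers to 309, 332 and 279 CPM, with no marker at 0. The 8 NK markers summed to 482, 364 and 202 CPM, the 9 T markers to 644, 1017 and 842 CPM and the 6 erythroid markers to 68.1, 14.8 and 9.27 CPM. The part of these cells in the levels of Cd81 and Cd63 was not tested.

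The share of cells with a Cd81 count was compared after every cell had been thinned to 3000 counts, which left out none. Among monocyte/macrophage-like cells it was 10.7% (9.91 to 11.6) in the 4-month library, 18.8% (17.62 to 20.03) in the 12-month library and 24.45% (23.26 to 25.67) in the 20-month library. In NK-like cells it was 2.32%, 4.31% and 5.58%. Without thinning the shares were 19.15%, 32.54% and 39.0% for the former and 6.72%, 11.55% and 13.2% for the latter, at median depths of 7581.5, 8641 and 7870 counts and 7285.5, 7903 and 7012.5 counts.

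Cd63, the late endosomal member, had the widest range over cell types. Mast cell or basophil-like cells held 5197 CPM (4682 to 5753), 6147 CPM (5821 to 6486) and 6750 CPM (6293 to 7233) in 8, 19 and 17 cells. Fibroblast-like cells held 2303, 2237 and 2718 CPM. Mature dendritic-like cells held 2626, 2356 and 2192 CPM, and the type 1 and type 2 dendritic-like cells beside them held no more than 32.6 CPM in any library. Pf4 macrophage-like cells followed with 663, 569 and 621 CPM, and no other cluster exceeded 197 CPM in any library.

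The dendritic cell-like class held 465, 605 and 325 CPM of Cd63, a log2 ratio of 0.38 (0.31 to 0.45) at 12 months and -0.52 (-0.60 to -0.44) at 20 months. Mature cells carried 92.05% of the class's Cd63 counts at 20 months, and the 10 cells with most Cd63 carried 24.1% of them. With cluster shares held at those of 4 months the ratios were -0.14 and -0.225, so that the 12-month value turned, and inside mature cells they were -0.16 (-0.23 to -0.09) and -0.26 (-0.34 to -0.18).

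Among monocyte/macrophage-like cells Cd63 stood at 113, 152 and 203 CPM, with non-overlapping intervals in the order of age. The ratios were 0.43 (0.37 to 0.48) and 0.84 (0.79 to 0.89). With cluster shares held at those of 4 months they were -0.029 and 0.20, and the 12-month value turned. Inside the clusters the 20-month ratio was 0.52 (0.44 to 0.60) in C1q macrophage-like cells and -0.10 (-0.18 to -0.01) in Pf4 macrophage-like cells, and classical monocyte-like cells held 31.2, 26.6 and 33.2 CPM. The Pf4 macrophage-like cells gave 30.05%, 43.4% and 47.5% of the class's Cd63 counts.

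NK-like cells held 21.2, 29.98 and 29.7 CPM of Cd63 and T-like cells 24.96, 24.3 and 25.2 CPM. Those NK-like levels were 18.7%, 19.7% and 14.6% of the monocyte/macrophage-like level. The order over classes was mast cell or basophil-like, fibroblast-like, dendritic cell-like and monocyte/macrophage-like cells, none overlapping the next in range, followed by B-like, plasmacytoid dendritic cell-like, NK-like and T-like cells, whose neighbours overlapped.

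A processed pseudogene, Cd63-ps, is listed separately and its level followed that of Cd63, with 6.55, 8.62 and 11.1 CPM in the monocyte/macrophage-like and 26.4, 34.5 and 17.2 CPM in the dendritic cell-like class. Reads of the 2 copies may have been split by the counting, which makes the level of Cd63 uncertain by that much.

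Cd9 differed in the opposite direction from Cd81 and Cd63 in monocyte/macrophage-like cells. It stood there at 78.1 CPM (75.4 to 80.8), 59.0 CPM (56.6 to 61.5) and 51.9 CPM (49.8 to 54.1), and the intervals did not overlap. The ratios were -0.40 (-0.48 to -0.33) and -0.59 (-0.67 to -0.51), the latter -0.57 with cluster shares held. Cells led by Il1b and Cxcl2 held 149.8, 81.3 and 83.1 CPM, a ratio of -0.85 (-0.98 to -0.72) at 20 months, and Pf4 macrophage-like cells 38.1, 55.2 and 35.1 CPM.

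In dendritic cell-like cells Cd9 was higher at the older ages, with 98.5, 112 and 145 CPM and a log2 ratio of 0.56 (0.41 to 0.70) at 20 months. Type 2 cells, led by Cd209a, held 68.0, 93.1 and 122 CPM (ratio 0.85, 0.64 to 1.06). Type 1 cells, led by Xcr1 and Clec9a, had the highest mean of the 22 immune clusters, with 167, 167 and 209 CPM. That cluster's range overlapped with that of NK-like cells led by Klra4 and Klra8, with 169, 151 and 159 CPM.

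T-like cells held less Cd9, at 36.0, 33.0 and 25.3 CPM (20-month ratio -0.51, -0.63 to -0.39). In the same cells the 8 NK markers summed to 1100, 813 and 476 CPM and the 6 erythroid markers to 2125, 207 and 142 CPM, none of them at 0, and their part in the levels of T-like cells was not tested. The T-like cluster led by Dapl1, Gzmm and Ccr7 went from 54.6 to 35.1 and 21.8 CPM, a ratio of -1.32 (-1.54 to -1.10), whereas the cluster led by Cxcr6 and Cd8b1 held 39.8, 31.4 and 28.8 CPM. Plasmacytoid dendritic cell-like cells had 7, 4 and 3 counts of Cd9. The order over classes was fibroblast-like cells, then mast cell or basophil-like and NK-like cells, which overlapped, dendritic cell-like cells, monocyte/macrophage-like and B-like cells, which overlapped, T-like and plasmacytoid dendritic cell-like cells.

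Of the leukocyte tetraspanins, Cd37 was highest in B-like cells. B-like cells held 519.6 CPM (413 to 645), 370 CPM (293 to 462) and 489 CPM (391 to 605). The 5 plasma cell markers summed there to 348.5, 10430 and 328 CPM, with 3, 0 and 3 of them at 0, and their part in the 12-month level was not tested. NK-like cells held 218, 204.5 and 189 CPM. T-like cells held 188, 181 and 173 CPM and plasmacytoid dendritic cell-like cells 278, 239 and 242 CPM. The myeloid classes stood lower, with 43.4, 55.25 and 48.6 CPM in monocyte/macrophage-like and 49.5, 50.1 and 53.3 CPM in dendritic cell-like cells. For the former the ratios were 0.35 (0.26 to 0.44) and 0.16 (0.07 to 0.25), and in NK-like cells it was -0.20 (-0.28 to -0.13) at 20 months.

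Cd53 was present in every immune class. NK-like cells held 831, 774 and 734 CPM, monocyte/macrophage-like cells 772.5, 657 and 681 CPM, and T-like cells 716, 662 and 672 CPM, and the ranges of these 3 classes overlapped in that order. Regulatory T-like cells were the highest cluster, with 1225, 1113 and 1003 CPM, and mature dendritic-like cells the lowest immune one, with 189, 163 and 159 CPM. Its 20-month ratio was -0.18 (-0.20 to -0.16) in monocyte/macrophage-like and -0.18 (-0.22 to -0.14) in NK-like cells, and plasmacytoid dendritic cell-like cells differed the other way, with 384, 422 and 553 CPM (0.52, 0.20 to 0.85).

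Cd82 stood highest in T-like cells, with 182, 204 and 181 CPM. The cluster led by Ccl1 and Penk held 388, 467 and 285 CPM, gamma-delta T-like cells led by Trgc1 and Il17a 288, 289 and 202 CPM and regulatory T-like cells 247, 255 and 233 CPM. Monocyte/macrophage-like cells had their highest level at 12 months, with 60.97 CPM (58.6 to 63.4), 97.65 CPM (94.6 to 100.8) and 81.5 CPM (78.9 to 84.25). The ratios were 0.68 (0.61 to 0.75) and 0.42 (0.35 to 0.49), and 0.65 and 0.39 with cluster shares held. Each of the 6 clusters of the class had a 20-month ratio above 0, from 0.21 to 0.73, and in 3 of them the interval lay above 0.

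Cd151, which pairs with laminin-binding integrins, was scarce in immune cells. Monocyte/macrophage-like cells held 15.3, 14.5 and 14.9 CPM with overlapping intervals (20-month ratio -0.04, -0.20 to 0.12), and NK-like, T-like and dendritic cell-like cells each held under 10 CPM on average and were not counted in the fold comparison. Fibroblast-like cells held 92.3 CPM (70.1 to 119), 66.95 CPM (42.0 to 101) and 102 CPM (77.6 to 131). Mast cell or basophil-like cells had 0, 9 and 5 counts. B-like cells had 0, 1 and 0 counts, and a count of 0 allows up to 19.01 CPM at 4 months and 17.3 CPM at 20 months by the rule of 3 counts of the class total, while the exact upper bounds are 23.4 and 21.2 CPM.

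Tspan13, a less studied member, marked plasmacytoid dendritic cell-like cells, with 469 CPM (404 to 540.5), 635.5 CPM (562 to 716) and 512 CPM (432.5 to 601). Dendritic cell-like cells came next, with 250, 193 and 214 CPM. NK-like cells held 174.5, 160 and 148 CPM and T-like cells 112, 115 and 98.2 CPM. Monocyte/macrophage-like cells held 148 CPM (144 to 152) at 4 months and less in both older libraries, with 95.2 CPM (92.2 to 98.3) and 99.3 CPM (96.4 to 102). The ratios were -0.64 (-0.69 to -0.58) and -0.57 (-0.63 to -0.52), and each of the 6 clusters was lower at 20 than at 4 months, by ratios from -0.55 to -0.29, with the interval below 0 in 4 of them. The 6 include the small clusters led by Eya4 and by CT010467.1, which lack a marker of the class among their leading genes.

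Among the 22 immune clusters Tspan32, a tetraspanin of blood cells and the neighbour of Cd81, was highest in regulatory T-like cells. Mast cell or basophil-like cells, left out of the 22, held 83.8, 46.2 and 176 CPM from 6, 10 and 21 counts, and B-like cells 108, 38.0 and 104 CPM. Regulatory T-like cells held 177, 153 and 157 CPM, the highest of the 22 immune clusters, and Pf4 macrophage-like cells 78.2, 75.6 and 82.9 CPM. The T-like class went from 63.4 to 55.7 and 44.2 CPM, a ratio of -0.52 (-0.61 to -0.43) at 20 months, or -0.25 with cluster shares held. The sums of NK and erythroid markers in T-like cells, given with Cd9, were lower at 20 months too. NK-like cells held 30.7, 33.6 and 36.2 CPM of Tspan32, less than T-like cells in each library. The part of RNA from other cells in the T-like level was not tested. The Dapl1 Gzmm cluster held 37.5, 34.3 and 18.7 CPM (20-month ratio -1.005, -1.255 to -0.755). Monocyte/macrophage-like cells differed the other way, with 31.3, 41.6 and 45.9 CPM and a ratio of 0.55 (0.45 to 0.65) at 20 months, or 0.24 with cluster shares held.

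**Figure D3:**
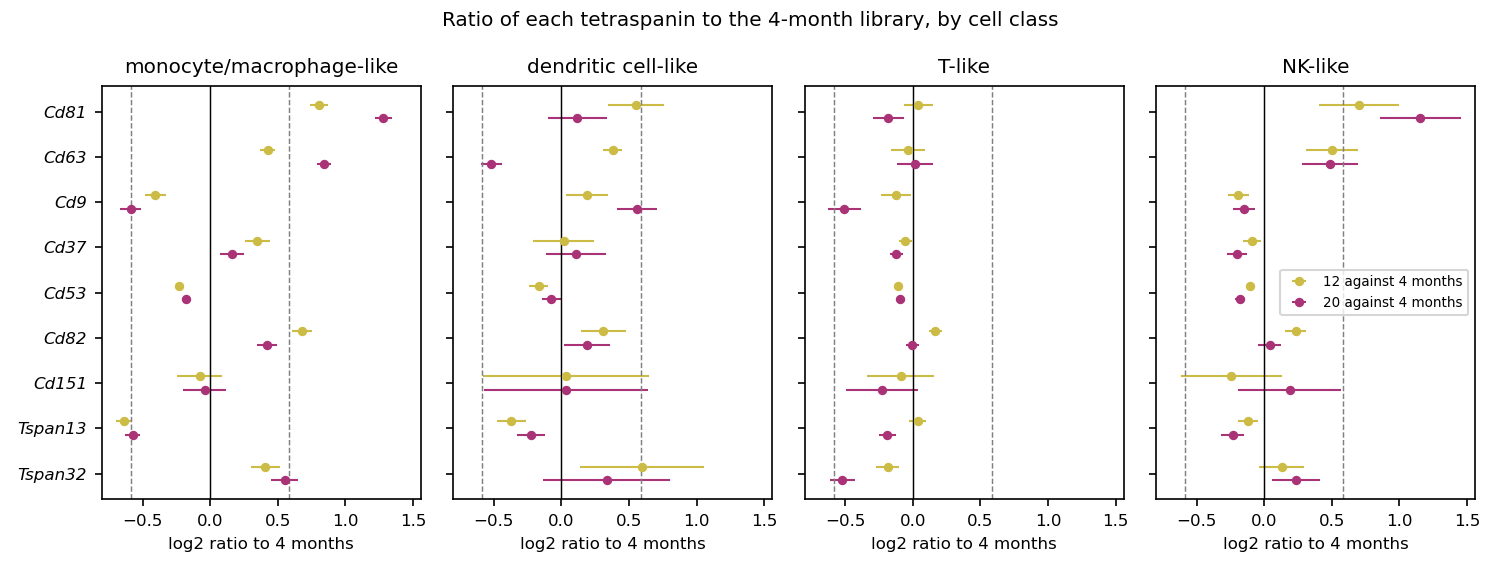
log2 ratio of 12 (yellow) or 20 (purple) months to 4 months for 9 tetraspanins in 4 cell classes; bars are exact 95% intervals for counting error, dashed lines mark 1.5-fold. In monocyte/macrophage-like cells Cd81 reached 1.28 and Cd63 0.84 at 20 months, while Cd9 stood at -0.59.

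A gene was counted as higher or lower when its level differed by 1.5-fold or more at a mean of at least 10 CPM. In monocyte/macrophage-like cells at 20 months Cd81 and Cd63 of the 9 genes were higher and Cd9 was lower, where 1.85% of 8582 genes were higher and 1.69% lower. At 12 months Cd81 and Cd82 were higher and Tspan13 lower, against 2.62% and 1.17% of the genes. Cd9 lay just past the mark at 20 months with a ratio of -0.59, and Tspan13 just short of it at -0.57. Cd9 missed the mark without removal of doublets, with thinned cells and with cells gated by their own marker counts (its ratio ranged from -0.60 to -0.38 over all alternatives). With cluster shares held at those of 4 months none of the 9 passed it at 20 months. The members were picked with such values known, so nothing is read from these counts. The median ratio of the 9 genes at 20 months was 0.16, beside -0.0018 over all genes.

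In dendritic cell-like cells Tspan32 (70, 103 and 90 counts) was higher at 12 months, among 8 genes counted, with 3.32% of 8882 genes higher and 1.49% lower. At 20 months none passed, with 3.58% of genes higher and 2.59% lower. In NK-like cells Cd81 was higher at both ages, against 2.31% and 2.06% of 8088 genes, and none was lower, against 0.742% and 0.68%. The 12-month difference was short of 1.5-fold, at 0.45, in cells gated by their own marker counts. In T-like cells none of the 8 counted passed at either age, with 2.07% of 8317 genes higher and 0.77% lower at 12 months and 1.94% and 1.38% at 20 months. Without clusters that lacked a T marker among their leading genes Cd9 was lower there at 20 months (-0.59).

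**Figure D4:**
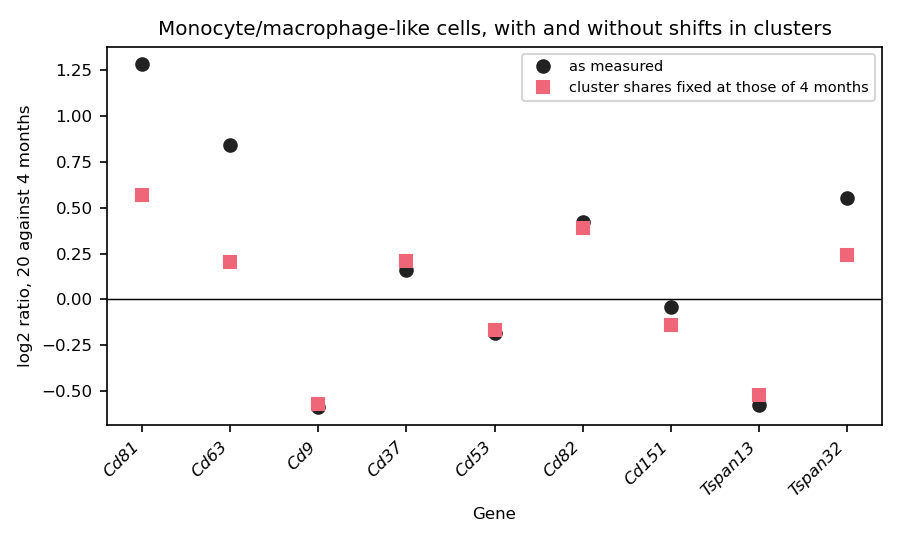
log2 ratio of 20 to 4 months in monocyte/macrophage-like cells for 9 tetraspanins, as measured (circles) and with the shares of the 6 clusters fixed at those of the 4-month library (squares). Cd81 moved from 1.28 to 0.57, Cd63 from 0.84 to 0.20 and Tspan32 from 0.55 to 0.24, while Cd9 stood at -0.59 and -0.57.

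The plot of fixed shares sets each measured ratio beside the ratio with cluster shares held. Cd81, Cd63 and Tspan32 moved towards 0. Within the class all 3 had their highest mean in Pf4 macrophage-like and their lowest in classical monocyte-like cells. The former made up more of the class in the older libraries, and the latter less. What the ratios depend on was not tested. Cd82 (0.42 and 0.39), Cd9 (-0.59 and -0.57), Tspan13 (-0.57 and -0.52) and Cd53 (-0.18 and -0.17) had close ratios both ways. Cd151 (-0.04 and -0.14) and Cd37 (0.16 and 0.21) moved away from 0. Cd151 too stood higher in Pf4 (mean 18.55 CPM) than in C1q macrophage-like cells (17.41 CPM).

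Beyond the 9 genes, 22 further tetraspanins were listed. Of these, 9 reached a mean of 10 CPM in monocyte/macrophage-like, dendritic cell-like, T-like, NK-like or plasmacytoid dendritic cell-like cells. B-like, mast cell or basophil-like and fibroblast-like cells were not searched for this count. In monocyte/macrophage-like cells 5 of the 22 were counted. At 20 months Tspan3 (12.1, 16.01 and 19.8 CPM, ratio 0.72, 0.55 to 0.88) and Tspan4 (10.2, 13.2 and 16.3 CPM, ratio 0.68, 0.50 to 0.86) were higher and none was lower, against 1.85% and 1.69% over all genes, with a median ratio of -0.09. Tspan3 was also higher in T-like cells, with 26.0, 29.9 and 43.7 CPM (0.75, 0.63 to 0.87), and in NK-like cells, with 11.4, 17.6 and 19.01 CPM (0.74, 0.46 to 1.01), where 1.94% and 2.06% of all genes were higher.

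In monocyte/macrophage-like cells the other 3 counted differed less. Tspan31 held 129, 124 and 121 CPM, Tspan14 65.5, 64.5 and 61.4 CPM, and Tspan5 17.6, 15.2 and 15.1 CPM. Tspan2 was highest in plasmacytoid dendritic cell-like cells, with 69.4, 91.5 and 38.03 CPM, and Rom1 had 3, 10 and 7 counts there. Dendritic cell-like cells held 23.02, 22.8 and 30.3 CPM of Tspan33 and 9.60, 8.28 and 12.4 CPM of Tspan9.

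Partners and regulators of tetraspanins were a list of 22 genes, of which 17 were counted in monocyte/macrophage-like cells. At 20 months 1 was higher and 3 were lower, where 1.85% of all genes counted were higher and 1.69% lower, and the median ratio was -0.04. Timp1, an inhibitor of metalloproteinases that binds CD63, stood at 21.01, 7.725 and 6.79 CPM (ratio -1.63, -1.82 to -1.44). Cd36, a scavenger receptor, stood at 16.1, 8.57 and 6.20 CPM (-1.37, -1.58 to -1.17). Cd44, the hyaluronan receptor, stood at 427, 301 and 283 CPM (-0.59, -0.63 to -0.56).

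Ifitm1, an interferon-induced membrane protein, was higher at 20 months but lower at 12 months, with 51.1, 32.8 and 82.35 CPM. Its family members Ifitm2 and Ifitm3 had 20-month ratios of -0.0047 and -0.31. Itgb1, the integrin chain shared by many tetraspanin partners, had a ratio of 0.10, and the proteases Adam10 and Adam17 had -0.04 and 0.12.

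Of 18 late endosome and exosome genes, 16 were counted in monocyte/macrophage-like cells, and at 20 months none was higher and 1 was lower (1.85% and 1.69% over all genes), with a median ratio of -0.07. The lower gene was Anxa2, which codes for a membrane-binding annexin, at 684, 448 and 393 CPM (-0.80, -0.83 to -0.77). The lysosomal membrane genes Lamp1 and Lamp2 had ratios of 0.18 and -0.08, and the exosome pathway genes Sdcbp, Pdcd6ip and Tsg101 had -0.19, -0.03 and -0.05. Cd63, at 0.84, lay above every gene of this list that was counted. With cluster shares held Cd63 was 0.20, and the genes of this list were not recomputed in that way. Cd63 was also picked with such values known, so nothing is read from its place.

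Patterns over the 22 immune clusters were compared for 6428 genes, each with a mean of at least 50 CPM in some cluster. The genes most like a member were found by Pearson correlation of log2(CPM + 10). For Cd81 they were Ebi3 (0.827), Vcam1 (0.742) and Zdhhc6 (0.739). For Cd63 they were Zmynd15 (0.984), Pdlim4 (0.980) and Cd63-ps (0.972), and for Cd9 Slamf7 (0.675), Plscr1 (0.647) and Efhd2 (0.622). The closest match of Cd9 was thus weaker than that of any other member.

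The leukocyte and remaining members had these matches. Cd37 was nearest to Ablim1 (0.937), Ppp1r16b (0.918) and Ets1 (0.900), Cd82 to Xlr3b (0.941), Cd247 (0.940) and Zap70 (0.932), and Tspan32 to Rhoh (0.884), Batf (0.862) and Tm2d3 (0.851). Cd53 was nearest to Lamtor4 (0.878), Gbp7 (0.836) and Bin2 (0.830), Cd151 to Ntpcr, Ncstn and Fth1 (each 0.844), and Tspan13 to Stat5a (0.795), Fgfr1 (0.783) and 2210408F21Rik (0.765). Cd151 itself had a mean of no more than 20.4 CPM in any of the clusters, below the minimum set for the compared genes. Clusters share libraries, and the correlations are a description with no test.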

How the data were processed

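Raw whole-number counts per gene and cell were deposited by the authors for 3 libraries (4, 12 and 20 months). Per the submitters' processing notes STAR 2.7.10a and GRCm38 were used. The unit was taken from the deposited values, and other steps are not given in the sources used here.

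Cells needed 500 counts or more and no more than 15% mitochondrial counts, and the 6% with the highest simulated-doublet score in each library were removed (863, 879 and 881 cells). Clusters were made with leidenalg 0.10.2 (resolution 1.0, 30 principal components of 2000 variable genes, 20 neighbours) without tetraspanins and 24 library-specific genes, and named by the marker list with the highest score. Total counts per library were 110371225, 127850782 and 119873564. Counts were summed per class and library and scaled to CPM. Exact Poisson, conditional binomial and Clopper-Pearson 95% intervals cover counting error only. The calculation of ratios was tested on simulated data. Calculations used Python 3.11.15, numpy 2.4.6 and scipy 1.17.1.

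The members, gene lists and marker lists were chosen with earlier results of these data known. Named genes are the 9 members, the 3 genes most like each member, and other tetraspanins of at least 10 CPM in a class. B-like, mast cell or basophil-like and fibroblast-like cells were not searched for the latter. Partner and late endosome genes are named where past 1.5-fold at 20 months in monocyte/macrophage-like cells (the 6 with the largest change per list at most). Further genes named in the text (Ifitm2, Ifitm3, Itgb1, Adam10, Adam17, Lamp1, Lamp2, Sdcbp, Pdcd6ip and Tsg101) were chosen after their values were seen, as list members short of 1.5-fold.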

Additional observations from a re-analysis of the deposited data

How the results depend on the processing

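Each of 66 ratios was recomputed under up to 11 alternatives, 4 of them added after seeing the data (without cells of barcodes in 2 libraries, totals without library-specific genes, without clusters lacking a marker among their leading genes, and Cd63 with its pseudogene), and 56 had 1 sign under all that were run. With cluster shares fixed at those of 4 months the Cd81 ratio in monocyte/macrophage-like cells was 0.31 at 12 months and 0.57 at 20 months, 0 members were higher and 0 lower by 1.5-fold at 20 months, and 3 ratios whose interval had been clear of 0 changed sign, those of Cd81 in T-like cells at 20 months (0.15) and of Cd63 at 12 months in monocyte/macrophage-like (-0.029) and dendritic cell-like cells (-0.14). With cells gated by their own marker counts Cd81 in monocyte/macrophage-like cells at 20 months was 1.18, Cd63 in NK-like cells at 12 months -0.020 and Tspan32 in NK-like cells at 20 months -0.056. Without doublet removal, with thinned cells or with gated cells 0 members were lower by 1.5-fold in monocyte/macrophage-like cells at 20 months, and the ratio of Cd9 ranged from -0.60 to -0.38. Gating left 16 to 24 dendritic cell-like cells per library, so no gated value is given for them. Of the shares of cells, 143 moved beyond their interval at 1000 counts (19 did not) and 144 without thinning (18 did not). A share falls with fewer counts per cell and rises with more, so these numbers do not bear on the order of ages. With a pseudocount of 1 CPM, 2 members (Cd151 and Tspan13) kept fewer than 2 of their 3 most similar genes. No paired analysis was possible because each age has 1 library, which also leaves no library to leave out.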
